A study of Mus musculus with 4 samples.

Results

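The gene Ppargc1b codes for the protein PGC-1beta. The transcript described here is not its coding mRNA. It is ENSMUST00000142134, a short RNA of the same gene that the study's lists class as a noncoding RNA of the exon sense-overlapping kind, which means that its exons overlap exons of the coding gene on the same strand. It was taken from the study's lists of changed lncRNAs by its symbol. It stands in 1 of the 5831 list entries read here, that of lncRNAs higher at 96 h than at 0 h, and it was singled out with its 96 h value known. That value is therefore given as a description. The lists name 3826 genes in the entries read. Of the 60930 probes on the array that are not controls, the entries read name 3937, and 1 of these is named for this transcript. Whether unnamed probes also match it was not tested.

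PGC-1beta is a transcriptional coactivator. It binds no DNA itself and works through factors such as the estrogen-related receptor alpha, which switch on genes of the mitochondrial respiratory chain. The osteoclast, the large multinucleated cell that resorbs bone, is formed by fusion of cells of the monocyte and macrophage lineage and is rich in mitochondria. PGC-1beta is known to rise during this process and to drive the growth of the mitochondrial pool. RANKL is the cytokine that commits precursors to the osteoclast fate, and M-CSF keeps the precursors alive.

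The cells were RAW264.7, an established mouse macrophage line that forms osteoclasts when RANKL is added and that stands in for primary bone marrow macrophages. Both cytokines were given together, RANKL at 100 ng/ml and M-CSF at 50 ng/ml, for 0 h (labelled monocyte), 24 h (pre-osteoclast), 72 h (mature osteoclast) or 96 h (activated osteoclast). Each time point has 1 array, so no p-value was computed, and differences between cultures cannot be told apart from differences between times. In the file headers the 0 h and 72 h arrays share a scan identifier, and those of 24 h and 96 h share another. Arrays with the same identifier were taken to lie on the same slide, called slide 1 and slide 2 here. No label names the slide. Only 72 h against 0 h and 96 h against 24 h are thus comparisons within a slide. They were of the 1-colour Agilent kind, with the LncRNA V3.0 probe set of Arraystar for the mouse, and between 58.8% and 66.8% of the probes were well above background. Of the defining markers of osteoclasts and macrophages, such as Acp5, Ctsk, Calcr and Csf1r, the entries read named probes for Mmp9 and Irf8, both listed for noncoding transcripts, so the cell state was not checked here against coding markers.

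The transcript was annotated on the minus strand of chromosome 18 of GRCm38, from 61389831 to 61400400. This span of 10570 bases gives an RNA of 366 bases, so that 3.46% of the span is kept after splicing. RefSeq places Ppargc1b at 61291445 to 61400756, a gene of 109312 bases. The noncoding transcript starts 356 bases inside the gene from its upstream end and takes up 9.67% of it. It therefore lies in the first, 5′ part of the gene. Mir378a, a microRNA gene, lies inside the span at 61397835 to 61397900, and the lncRNA gene Gm52354 overlaps it at 61399159 to 61401457. The nearest genes outside Ppargc1b in the annotation are Slc26a2, Pde6a, Arhgef37 and Csnk1a1.

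The probe has 60 bases and is placed at 61389880 to 61390086, 49 bases from the 3′ end of the transcript. That interval of 207 bases is 147 bases longer than the probe, so the probe covers more than one block of the genome. It is listed with no cross-hybridisation entry, while 221 of the named probes have one. None of the other 3936 named probes shares 15 bases with it on either strand. Whether the probe also binds the coding Ppargc1b mRNA was not tested. The level below is therefore that of RNA matching this probe.

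The signal stayed low through 72 h and was high at 96 h. Agilent Feature Extraction gave a processed signal, which is a brightness with the background taken off, of 131 ± 14.2 on the 0 h array and of 113 ± 13.8 on that of 24 h. The 72 h array had 214 ± 22.1 and the 96 h array 1108 ± 111, where the error is the software's own estimate for the 1 spot on each array. The error ranges of 0 h and 24 h overlapped, and those of 72 h and 96 h lay above both and apart from each other. After quantile normalization, which gives every array the same distribution of values, the log2 levels of the 0, 24, 72 and 96 h arrays were 7.26, 6.79, 7.99 and 9.81. The order from low to high was thus 24, 0, 72 and 96 h, and slide 2 held both the lowest and the highest level. RNA of whole cultures was measured, in which fewer cells of a type and less RNA per cell cannot be told apart.

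**Figure D1:**
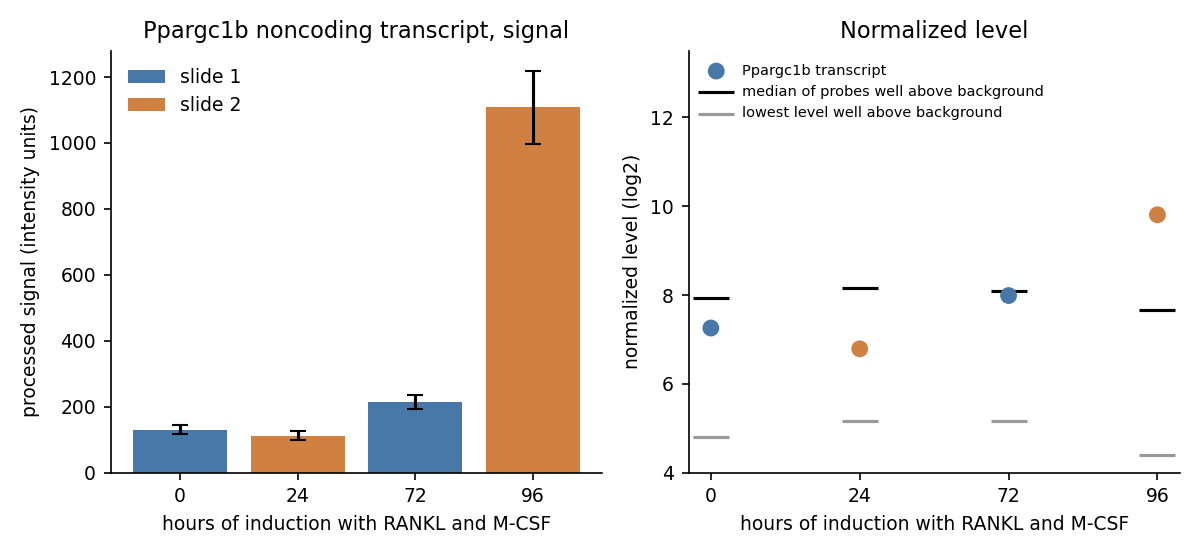
Processed signal of the Ppargc1b noncoding transcript with the software's error (left, bars coloured by slide) and its normalized log2 level (right, points) at 0, 24, 72 and 96 h of induction. The 96 h bar reaches 1108 units and the other arrays lie between 113 and 214 units, and only at 96 h does the normalized level lie above the median of probes well above background (black dashes).

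The probe was well above background on all 4 arrays. On the log2 scale its normalized level stood above the lowest level well above background by 2.45, 1.63, 2.83 and 5.40 on the arrays of 0, 24, 72 and 96 h. Among the probes well above background on each array its percentile was 40.3 in the 0 h array, 28.5 in that of 24 h, 48.7 in that of 72 h and 71.8 in that of 96 h. It was thus below the middle of the detected probes on the first arrays and in the upper part at 96 h.

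At 96 h the level was 5.85 times that at 0 h, a log2 change of 2.55 across slides. The probe was one of 2376 that were past 2-fold higher among 42005 tested, or 5.66%, and only 43 probes, 0.102% of them, changed upward by at least as much. The median change of all probes was 0.05. Before normalization the log2 change of the processed signal was 3.08, so the common scale of the arrays took away 0.53 of it. Since the transcript was selected on this comparison, its place in this distribution is not evidence of a change.

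Within slide 2, the level at 96 h was 8.09 times that at 24 h, a log2 change of 3.02. Past 2-fold higher here were 2207 of 41467 probes, or 5.32%, and 98 of them had a change as large. Against 72 h, which lies on the other slide, the 96 h level was 3.52 times as high, a log2 change of 1.82. In that comparison 4563 of 42014 probes, or 10.9%, were past 2-fold higher, and 990 reached the value of the Ppargc1b transcript. These comparisons use the same 96 h array on which the transcript was selected, so they are descriptions too and no separate support.

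The earlier differences were smaller. At 24 h the level was 0.72 times that at 0 h, a log2 change of -0.47. In this comparison 1325 of 39355 probes, or 3.37%, were past 2-fold higher and 2407 were past 2-fold lower. A change at or below that of the transcript was found for 16.0% of the probes. At 72 h the level was 1.66 times that at 0 h on the same slide, a log2 change of 0.73, with 4.32% of 39609 probes past 2-fold higher. The transcript itself was not past 2-fold at either time. The higher and lower counts at 72 h were 1712 and 2094, against 1490 and 2987 with scaling to the 75th percentile and 1531 and 2912 with scaling to the median.

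Between 24 h and 72 h the level was 2.30 times as high, a log2 change of 1.20, across slides. Here 3239 of 38991 probes, or 8.31%, were past 2-fold higher. It fell below 2-fold in other settings, to a log2 change of 0.79 with the normexp correction of the median signal at an offset of 50 and to 0.87 with the median signal left unsubtracted. Both start from the median signal in place of the processed signal, and which part of the setting moved the value was not tested.

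**Figure D2:**
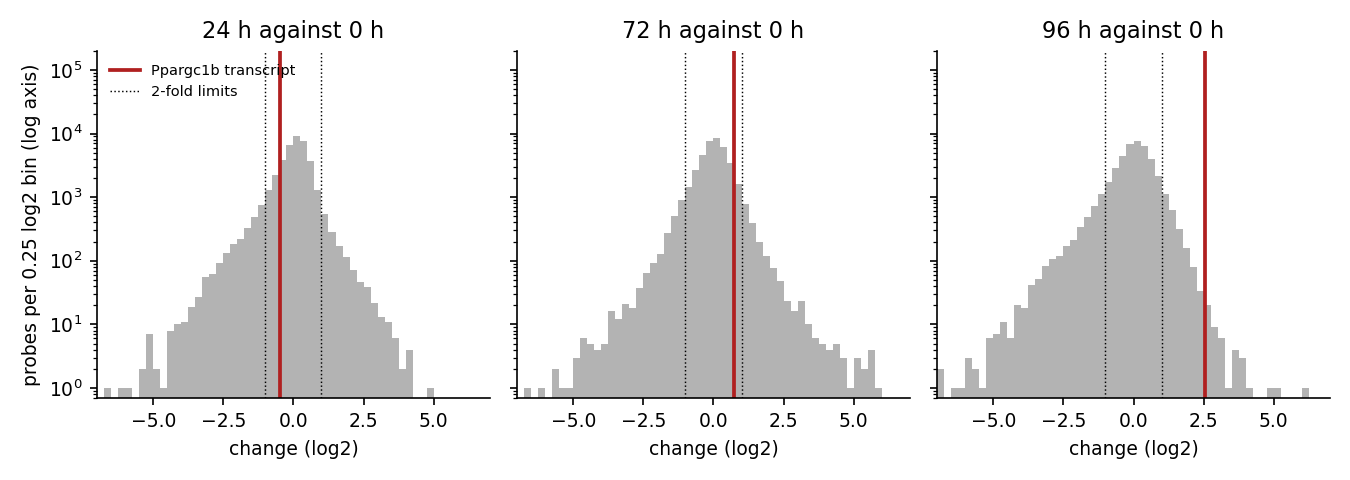
Number of probes (log axis) by log2 change at 24, 72 and 96 h against 0 h, in bins of 0.25, with the Ppargc1b transcript as a red line and the 2-fold limits dotted. The transcript lies inside the limits at 24 h (-0.47) and 72 h (0.73) and in the upper tail at 96 h (2.55).

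Measures of error within an array were set beside these changes. The first, Feature Extraction's error of the processed signal, came to between 10.0% and 12.2% of it on the 4 arrays. The second was the spread between spots of probes printed 20 times, taken from the 2 dimmest whose spots were all well above background. The larger of their SDs in log2 units was 0.17 for the 0 h array, 0.16 for that of 24 h, 0.21 for that of 72 h and 0.09 for that of 96 h. The change at 24 h against 0 h was 1.99 times the combined software error of its arrays and 1.98 times the combined spread between spots. The change at 72 h against 0 h was 3.39 and 2.71 times these errors, and that at 96 h against 0 h was 12.0 and 13.0 times. The 24 h and 0 h arrays, next to each other in the order, were thus less than 2 combined errors apart by either measure. Neither error covers the spread between cultures, which was not measured.

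The spot of the transcript had an uneven surround at 96 h. Feature Extraction marked its local background as nonuniform on that array, as it did for 39 of 61500 spots, and on no other array. It also marked the local background as an outlier of its population on all 4 arrays, a mark held by between 550 and 1615 spots of an array. The mean local background lay between the 97.7th and the 99.9th percentile of all spots. The spot itself carried no outlier mark and was not saturated.

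The local background was a smaller part of the signal at 96 h than on the other arrays. Over the arrays of 0, 24, 72 and 96 h its median was 38, 29, 41 and 29 units, while the median signal of the spot was 175.5, 180, 266 and 1226.5 units. The ratio of signal to background was 4.62, 6.21, 6.49 and 42.3. With the median signal left unsubtracted, the log2 change at 96 h against 0 h was 2.29.

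The changes of the spots around it were read too. Within 45 pixels lay 52 other spots, of which 5 had a nonuniform background at 96 h and 0 on each other array. All of these 5 lay on the same side of the spot, and those of them that could be compared had log2 changes between 0.46 and 0.79 at 96 h against 0 h. Of the 40 probes around it that could be compared, 2 were past 2-fold higher at 96 h than at 0 h and 1 was past 2-fold lower. Over the whole array 2376 of 42005 probes, or 5.66%, were past 2-fold higher and 3540 were past 2-fold lower. The 40 had a median log2 change of 0.21, beside 0.05 over all probes. The highest was 2.13, that of Gm14974, 32.9 pixels away on the side of the 5 marked spots. In the nearest ring 4 of 6 probes could be compared, and their log2 changes lay between 0.15 and 0.91. Over the whole array, 30 other probes with a nonuniform background at 96 h could be compared. Of these 2 were past 2-fold higher and 1 was past 2-fold lower, with a median log2 change of 0.29. The part of the uneven background in the level at 96 h was not tested.

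**Figure D3:**
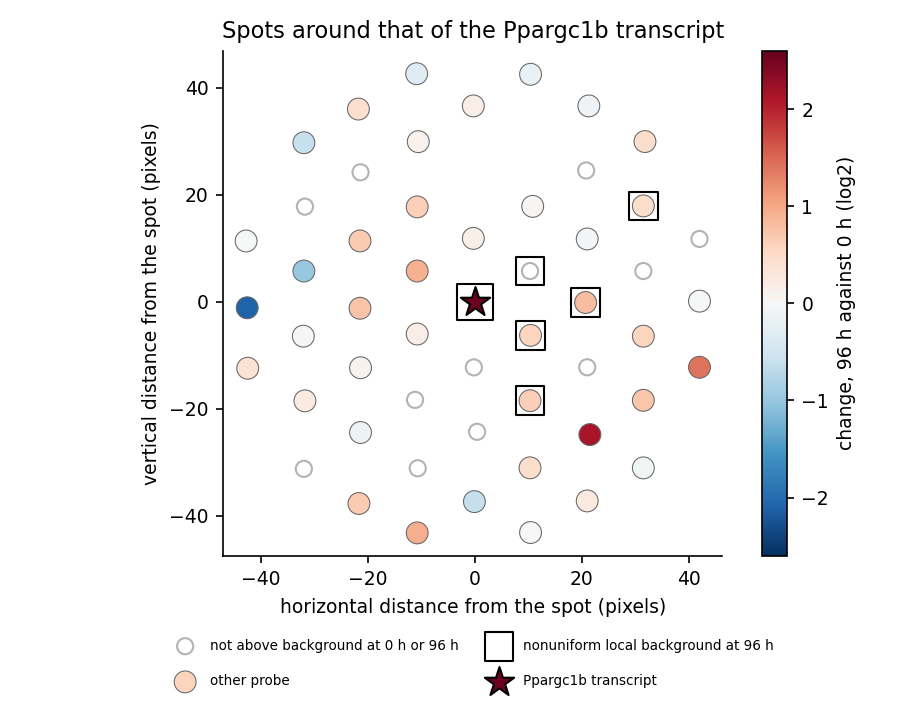
Spots within 45 pixels of the spot of the Ppargc1b transcript (star), placed by horizontal and vertical distance in pixels and coloured by log2 change at 96 h against 0 h, with squares around spots whose local background was nonuniform at 96 h and open circles for probes not above background. The star has a log2 change of 2.55, and the highest value among the others is 2.13.

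A level at 96 h past 2-fold over each of the other arrays was found for 941 of 43190 probes well above background on any array, or 2.18%. For probes well above background on all 4 arrays the count was 582 of 32725, or 1.78%. The Ppargc1b transcript had a margin of 1.82 on the log2 scale over its highest other array, which 33 of these probes reached, itself included. The order 24, 0, 72 and 96 h from low to high was shared by 1329 of them, or 4.06%. There are 24 possible orders.

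The transcript was also set beside others of its class. Among exon sense-overlapping transcripts in the 96 h list of higher lncRNAs, 186 of 387 were well above background on all 4 arrays, and that of Ppargc1b had the highest 96 h change of the 186. A transcript of Tyms, the gene of thymidylate synthase, came next with a log2 change of 2.38. One of Mfsd2b, a sphingosine-1-phosphate transporter gene, followed with 2.08, and one of St6gal1, the gene of a sialyltransferase, with 2.06. The changes at 24 h and 72 h against 0 h differed among these transcripts. That of Tyms was higher by 1.97 at 24 h and by 0.24 at 72 h, and that of Mfsd2b by 1.37 and 0.19. Both were thus high on the arrays of slide 2 only, so that time and slide cannot be told apart for them. Those of Ppargc1b and St6gal1 were lower at 24 h than at 0 h, by -0.47 and -0.69. Being lower at 24 h than at 0 h was found for 44 of the 186. At least 2-fold higher were 57 of the 186 at 24 h and 9 at 72 h, which again lie on different slides. Over all probes compared the shares at these times were 3.37% and 4.32%. The median log2 changes of the 186 at 24 h and 72 h were 0.48 and 0.04. Past 2-fold at 96 h over each other array were 40, the Ppargc1b transcript among them. All 186 were listed for being higher at 96 h, so these counts describe the list only.

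Likeness of profile was measured as the Euclidean distance between normalized log2 levels over the 4 arrays, each profile centred on its mean. Of 1591 named probes well above background on all arrays, the closest were those of Gm8884 at a distance of 0.57, DQ713531 at 0.63, Dhrs1 at 0.67, St6gal1 at 0.68 and 1700095B10Rik at 0.75. They were followed by 2610203C20Rik at 0.77, Gm12860 at 0.77, Gm14005 at 0.79, XLOC_016787 at 0.83 and AK030193 at 0.84. The median distance was 2.42. The first 5 were among the closest 10 in all 5 other settings, and 2610203C20Rik and AK030193 in 4, Gm12860 and XLOC_016787 in 3 and Gm14005 in 2 of them. Named probes come from the lists of changed lncRNAs. Among all 32724 other probes on all arrays, named or not, 17 lay within the distance of the tenth.

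Those that are closest differ in level and in kind. Gm8884, an intergenic RNA, had log2 levels of 6.43, 6.23, 7.11 and 8.45 at 0, 24, 72 and 96 h. DQ713531, an intergenic RNA of 88 bases, had 8.56, 7.81, 8.73 and 10.3. Both were lowest at 24 h and highest at 96 h, as was the Ppargc1b transcript. The noncoding transcript of Dhrs1, the gene of a short-chain dehydrogenase, had log2 levels of 6.26, 5.79, 6.35 and 8.13, and is exon sense-overlapping too. That of St6gal1 had 10.2, 9.54, 10.0 and 12.3. Its level at 72 h was below that at 0 h, unlike that of the Ppargc1b transcript. 2610203C20Rik had 7.37, 6.04, 7.45 and 9.91, with a 96 h change of 2.55 that equals that of the Ppargc1b transcript to the second decimal, but its level at 24 h was 0.40 times that at 0 h.

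The probes of 3 of these intergenic RNAs are shown, because they report the profiles set beside that of Ppargc1b and because one of them had the same change at 96 h. They come from the study's lists and read 5′ to 3′, and no base is marked by capitals.
Gm8884: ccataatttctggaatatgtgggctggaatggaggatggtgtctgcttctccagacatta
DQ713531: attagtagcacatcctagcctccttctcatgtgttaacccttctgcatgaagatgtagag
2610203C20Rik: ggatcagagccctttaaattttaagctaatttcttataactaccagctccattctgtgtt
Each has 60 bases. Their transcripts lie on chromosome 9 at 48454343 to 48454727 (Gm8884), on chromosome 7 at 69920600 to 69920688 (DQ713531) and on chromosome 9 at 41614236 to 41617772 (2610203C20Rik), all on the plus strand of GRCm38. No stretch of 15 bases is shared with the probe of the Ppargc1b transcript.

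**Figure D4:**
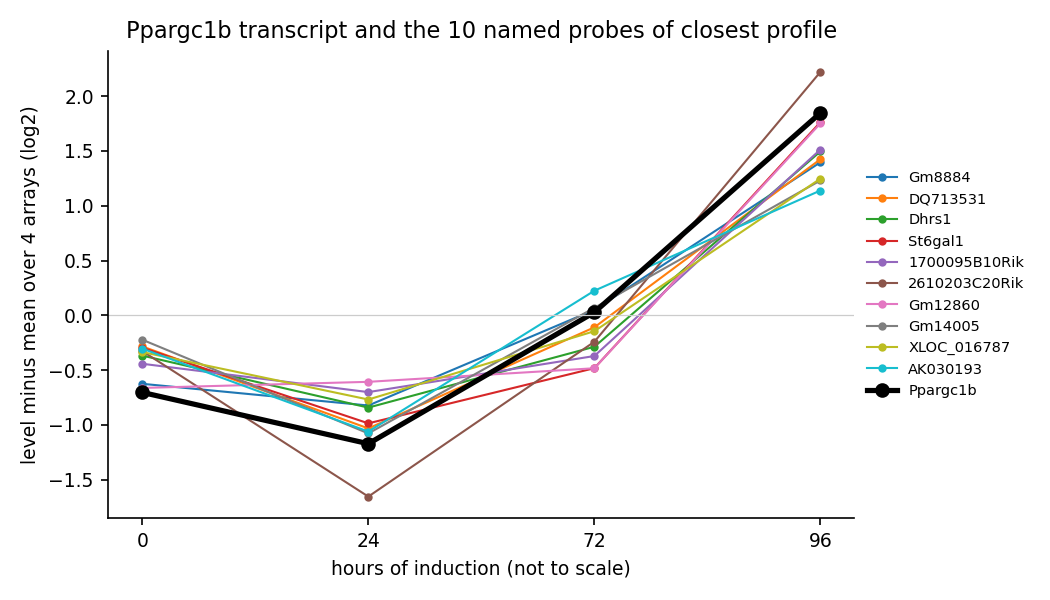
Normalized log2 level minus its mean over the 4 arrays at 0, 24, 72 and 96 h for the Ppargc1b transcript (thick black line) and the 10 named probes of closest profile (thin lines). All are highest at 96 h, and 2610203C20Rik has the lowest centred value at 24 h.

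Named transcripts within 1 Mb of it on either side numbered 5. AK019420, intergenic and 189 kb away, had log2 levels of 13.7, 13.6, 13.4 and 14.8 at 0, 24, 72 and 96 h, and AK086035, intergenic and 619 kb away, had 5.22, 5.06, 5.48 and 6.22, the second of these not well above background. Both were past 2-fold higher at 96 h than at 0 h, at 2.19 and 2.01 times. The other neighbours were higher at 72 h instead. AK139431, a natural antisense RNA 154 kb away, was 3.60 times as high at 72 h as at 0 h, 1500015A07Rik, a bidirectional RNA 326 kb away, 2.19 times, and AK078657, a natural antisense RNA 847 kb away, 2.07 times. At 96 h these 3 had log2 changes of 0.46, 0.26 and -0.04. They were all named through the lists of changed lncRNAs, AK019420 and AK086035 through that of 96 h and the others through that of 72 h. Neither their number nor the time of their change thus says anything of the region.

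Other genes of mitochondrial biogenesis were represented by probes listed for noncoding transcripts. A list of coactivators, their partner factors, respiratory chain subunits, mitochondrial ribosomal proteins and import proteins gave 10 named probes beside that of Ppargc1b. The entries read named no probe for Ppargc1a, Esrra, Nrf1, Gabpa or Tfam. That of Atp5k, an ATP synthase subunit gene, had outlier spots at 0 h and 72 h, so no change against 0 h could be computed. It was the only one of the 10 named from a list of lower lncRNAs, that of 24 h. At 24 h 2 of 6 probes that could be compared were past 2-fold higher, at 72 h 4 of 7 and at 96 h 3 of 7. None of those compared was past 2-fold lower, but the probe of Atp5k, listed as lower, was not among them. The median log2 change was 0.31, 1.02 and 0.90, beside 0.10, 0.04 and 0.05 over all probes. Since names come from lists of changed transcripts, mostly of those higher, these shares are not to be read against the background.

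The members given here peaked at different times, each at a time whose list of higher lncRNAs had named it. Their peak times thus follow from the lists and are no result about the genes. The transcript of Mrpl17, a subunit gene of the mitochondrial ribosome, had log2 levels of 10.5, 12.0, 10.6 and 12.5 at 0, 24, 72 and 96 h, and so was high on both arrays of slide 2. That of Uqcrb, a subunit gene of respiratory complex III, had 7.94, 8.56, 9.42 and 8.69 and was highest at 72 h. That of Ndufb4, a subunit gene of complex I, was 2.03 times as high at 72 h as at 0 h and 0.84 times as high at 96 h. That of Mrpl19, another ribosomal subunit gene, did likewise with 2.21 and 0.81 times. Higher at 96 h were the transcripts of Tomm20l, 2.29 times, and Tomm34, at least 3.71 times, since it was not well above background at 0 h. Both genes are named for the import machinery of the outer mitochondrial membrane. The Ppargc1b transcript had the highest 96 h change of those measured on both arrays, and it was below 2-fold at 72 h, where 4 of the others were past it. It was named only from the list of lncRNAs higher at 96 h, and those 4 only from that of 72 h. This contrast was thus set by the lists.

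Of the osteoclast genes looked for, 3 had a named probe. The noncoding transcript of Atp6v0a4, a proton pump subunit gene that entered the list only by the start of its symbol, had log2 levels of 7.24, 6.87, 7.30 and 8.26. Its arrays fell in the same order as those of the Ppargc1b transcript, an order shared by 4.06% of probes on all arrays. Its 72 h and 0 h levels differed by only 0.05, less than the spread between spots of 0.17 and 0.21 given above for these arrays. Their order is thus not resolved. The Atp6v0a4 transcript was 2.03 times as high at 96 h as at 0 h. That of Irf8, the gene of a factor that restrains osteoclast formation, had 9.18, 9.53, 11.1 and 9.27 and was highest at 72 h. That of Mmp9, the gene of a matrix protease of osteoclasts, had 8.90, 7.42, 6.35 and 8.06 and was lowest at 72 h. That of Atp6v0a4 was named from the list of lncRNAs higher at 96 h and that of Irf8 from the 72 h list, so their peak times follow from the lists. That of Mmp9 was named from the list of lncRNAs lower at 24 h, so its lower level at 24 h follows from that list. These probes are listed for exon sense-overlapping noncoding transcripts, and whether they also bind the coding mRNAs was not tested. For Irf8 the paper measured the mRNA by qPCR and reports it as down regulated during osteoclast formation. The level of the Irf8 probe is thus not to be read as that of the mRNA.

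**Figure D5:**
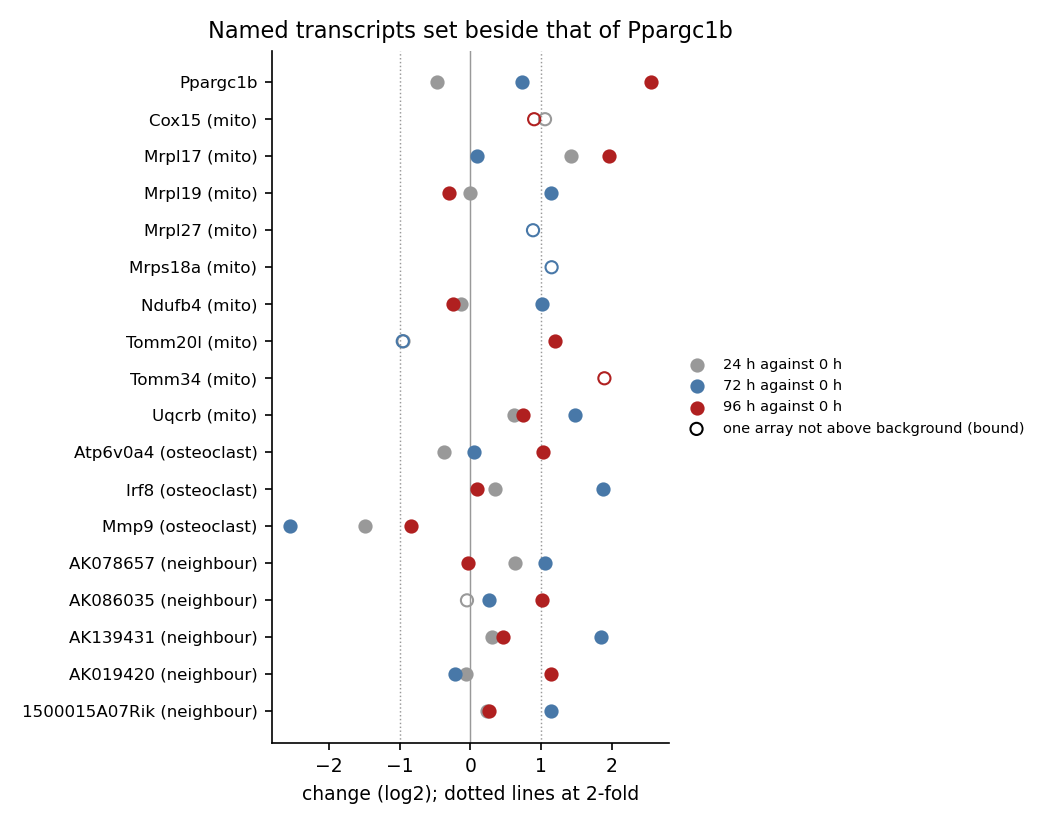
Log2 change at 24, 72 and 96 h against 0 h of the Ppargc1b transcript, of the named transcripts of mitochondrial biogenesis genes (mito) and osteoclast genes, and of named neighbours within 1 Mb, with open circles where one of the arrays was not well above background. Among transcripts well above background on both arrays, that of Ppargc1b has the highest 96 h value (2.55), and 8 of the others exceed 2-fold at 72 h (filled or open blue circles right of the dotted line). These 8 were named from the list of lncRNAs higher at 72 h, and that of Ppargc1b from the 96 h list.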

How the data were processed

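RNA of RAW264.7 cells was measured on 4 arrays, 1 for each time of induction. Per the methods, mRNA was purified, amplified by random priming and labelled with Cy3. Scanned images were turned into spot values by the authors, and per the file headers this was done in Feature Extraction 11.0.1.1. The deposited values used here are the intensity of each spot (processed signal, median signal and local background), its error and its marks, with no normalization between arrays. The authors' deposited log2 values, quantile normalized over the 4 arrays, served as an alternative. All columns of values given for the 4 arrays belong to samples described here.

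Control spots and spots marked as feature outliers were left out, log2 processed signals were averaged over the spots of a probe, and the arrays were quantile normalized with limma 3.58.1 in R 4.3.3. Python 3.11.15, numpy 2.4.6, pandas 2.3.3 and matplotlib 3.10.9 were used. A probe entered a comparison when well above background on at least 1 of its arrays, with values not above background raised to the lowest normalized level among probes that were (4.81, 5.17, 5.16 and 4.41 at 0, 24, 72 and 96 h). The limit was 2-fold. The functions were tested on simulated data. The precision is limited by the number of arrays.

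Names, classes, coordinates and probes of lncRNAs come from the study's supplementary lists, which were read in part. Of 1596 list transcripts with a RefSeq symbol, 1579 overlap that gene on GRCm38. Probes of mRNAs were not named here, and the placement of the probe against the coding mRNA and protein was not run. The named transcripts are the 10 of closest profile, those within 1 Mb and those of 2 gene lists, while Tyms and Mfsd2b were named after their values were seen. The transcript, the lists and the settings were chosen with earlier results of these data known. The alternatives were other normalizations, background corrections, filters and limits.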

Additional observations from a re-analysis of the deposited data

Results flagged for a closer look

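The log2 change of the Ppargc1b transcript against 0 h differed in direction and size between the time points. The changes of the 24, 72 and 96 h arrays were -0.47, 0.73 and 2.55, each from 1 array per time point. The difference between these changes was not tested, and the 3 comparisons share the 0 h array.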

How the results depend on the processing

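No paired analysis was possible because each time point has 1 array and no replicate numbers are given. For the same reason no array could be left out. The direction of each change of the Ppargc1b transcript was the same under the 7 alternatives run for it. The log2 change at 24 h against 0 h lay between -0.49 and -0.20, that at 72 h against 0 h between 0.59 and 0.73, that at 96 h against 0 h between 2.23 and 2.55, that at 72 h against 24 h between 0.79 and 1.21, that at 96 h against 24 h between 2.44 and 3.02 and that at 96 h against 72 h between 1.65 and 1.82. With normexp the changes at 24 h and 96 h against 0 h were -0.20 and 2.23, and those at 72 h and 96 h against 24 h were 0.79 and 2.44. With the unsubtracted median signal the change at 96 h against 0 h was 2.29, and those at 72 h and 96 h against 24 h were 0.87 and 2.53. Both settings start from the median signal, and the cause of the shift was not tested.

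Counts of probes past the limit depended on the filter and the limit. Without filter and floor, the probes higher than at 0 h numbered 3392 (24 h), 4197 (72 h) and 4601 (96 h), and 1737 were higher at 96 h than on each other array. With a limit of 1.5-fold these counts were 4639, 5323, 6896 and 2723, and with 4-fold 217, 231, 161 and 58. For probes above background on all arrays compared, 752 were higher at 24 h and 582 at 96 h over each other array. Of the probes past 2-fold at 72 h, 1712 were higher and 2094 lower, against 33.3% higher with scaling to the 75th percentile and 34.5% with scaling to the median. Of the 10 closest profiles, 6 were shared with the list by distance of changes against 0 h. Under the other alternatives run, the counts higher than at 0 h and higher at 96 h than on each other array stayed within 1.5 times of those given. The remaining counts were not recomputed. The limits are that the 1 named probe of the transcript has 1 spot per array, and that time and slide cannot be told apart except within a slide. A further limit is that at 24 h its signal was 1.63 on the log2 scale above the lowest level well above background.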
